A study of Homo sapiens with 6 samples.

Results

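The 78 mitochondrial ribosomal protein genes named MRPL or MRPS and C1QBP were followed in FUJIOKA cells in which SPINK2 had been silenced. FUJIOKA is a human acute myeloid leukaemia cell line. Members were all rows whose gene symbol was C1QBP or MRPL or MRPS followed by a number and, for some, a letter A to C. This gave 87 of 63236 rows, in which 79 symbols had reads: 49 named for the large subunit, 29 named for the small subunit and C1QBP. The subunit was read from the L or S of the symbol. Whether each protein is part of the ribosome was not checked. A further 8 gene IDs carried the symbols MRPS18B (6 IDs), MRPL45 (1 ID) and MRPS36 (1 ID) and were listed at 0. All 79 members with reads were tested among 15465 genes. The rule used gene names only.

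The 6 mRNA libraries fell into 2 groups of 3, both carrying a doxycycline-inducible lentiviral shRNA vector, Tet-pLKO-puro, with puromycin resistance. shNEG cells expressed a scrambled, non-targeting shRNA and shSPINK2 cells an shRNA against SPINK2, which encodes a small Kazal-type inhibitor of serine proteases. The labels name 2 SPINK2 shRNAs but not which one a library carried, so the group cannot be split by shRNA. The study's methods describe 1 of them, shRNA1. The sources used here give neither the time on doxycycline for these libraries nor whether they came from separate cultures. The p-values then measure only the spread between these libraries, which may be technical.

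The mitochondrial ribosome, or mitoribosome, translates the few proteins encoded by mitochondrial DNA, all subunits of the respiratory chain or ATP synthase. Its RNA is made in the mitochondrion, while all of its proteins are encoded in the nucleus and imported. The small subunit binds the mRNA and reads the codons, and the large subunit joins the amino acids. C1QBP, named for its binding of the complement protein C1q, is a matrix protein needed for mitochondrial translation, and is no part of the finished ribosome. Acute myeloid leukaemia cells are known to depend on mitochondrial translation.

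The SPINK2 shRNA sequences that the labels name are shown first, and whether any library carried shRNA2 is not known. Both are given in the sense direction, with the 7 bases opposite guide positions 2 to 8 in capitals.
shRNA1: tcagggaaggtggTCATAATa
shRNA2: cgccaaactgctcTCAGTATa
Both 21-base sequences matched the coding part of the SPINK2 transcript in full, at bases 395 to 415 for shRNA1 and 287 to 307 for shRNA2 of its 722 bases. In the transcripts of the 79 members (1 annotated transcript per gene), the longest run shared with shRNA1 was 6 to 10 bases, with a median of 7. The longest run was 9 bases between C1QBP and shRNA1, a length that 19.0% of 15326 genes reached or passed, and 6 bases between C1QBP and shRNA2, which 97.5% reached or passed. The capital letters of shRNA1 occurred in the 3′ UTR of 5 members (6.33%, against 13.6% of 11731 genes) and those of shRNA2 in 7 members (8.86%, against 15.4%), and C1QBP was in neither set. Of the 5 members with the shRNA1 letters, 0 fell and 1 rose, and of the 7 with the shRNA2 letters 1 fell and 1 rose.

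SPINK2, the targeted gene (ENSG00000128040.10, chr4:56809860-56821742, GRCh38), was checked before the members. Its counts, divided by each library's size factor and called normalized counts from here on, were 55.8, 63.0 and 53.1 with shNEG against 6.78, 8.92 and 6.09 with shSPINK2. The groups did not overlap, and the level was 87.3% lower in shSPINK2 (log2 change -2.83, SE 0.26, adjusted p = 1.39e-11, limma). The libraries carried 21622888 to 22556327 recovered reads over genes with a mean below 10000, and their size factors differed by at most 4.85%. Between shNEG and shSPINK2 libraries the SD of log2 differences over the mitoribosomal genes was 0.22 to 0.29, against 0.08 to 0.13 between libraries of 1 group. Over all tested genes with a mean of at least 1000 it was 0.39 to 0.41 between groups and 0.06 to 0.11 within. Of the myeloid markers, PTPRC, CD33, MPO, SPI1, CEBPA and LYZ had authors' means of 1844 to 44097, CD34 of 19.6 and KIT of 0.666. T cell markers were at 3.64 or below, and EPCAM and KRT19, markers of epithelium, were listed at 0. Of the B cell markers reported here, CD79A was at 183 and MS4A1 at 0.333.

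C1QBP (ENSG00000108561.8, chr17:5432777-5448830, minus strand) fell the most of the 79 members. Its normalized counts were 14822, 14465 and 14287 with shNEG against 3481, 3632 and 3679 with shSPINK2. All 3 shSPINK2 libraries lay far below all 3 shNEG libraries, and the values within a group were close together. The mean went from 14525 ± 272 to 3597 ± 104 (SD, n = 3 each), which was 75.2% lower, or a log2 change of -2.01 (SE 0.04, adjusted p = 3.51e-28, limma). Among the 6334 tested genes with a mean of at least 1000, 2 had a lower log2 change, HMGB3 (-2.11) and DPAGT1 (-2.27), both picked out after their values were seen. C1QBP was the highest of the 79 members per kilobase of exon in shNEG, at 6220 normalized counts per kilobase, and went to 1540 in shSPINK2. Set against the summed normalized counts of all 78 mitoribosomal genes, C1QBP was at 7.75% ± 0.16 in shNEG and 1.97% ± 0.02 in shSPINK2. C1QBP shares 4.33% of its exonic length with RPAIN on the opposite strand, whose log2 change was 0.01 (SE 0.06, adjusted p = 0.866, limma). On the same strand it shares another 4.28% with a long non-coding RNA gene (authors' mean 96.4), whose log2 change was 0.32 (SE 0.15, adjusted p = 0.0645, limma). It also shares 0.942% on that strand with DHX33 (authors' mean 3268), which fell by 0.34 on the log2 scale (SE 0.04, adjusted p = 4.24e-08, limma). In bulk RNA, fewer cells that express a gene and less RNA per cell cannot be told apart, here and for all results that follow.

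With C1QBP included, 33 of the 79 members fell and 17 rose at an adjusted p under 0.05 (limma), and 29 did not pass. Over all genes tested, 29.5% fell and 28.1% rose by the same rule. These shares move with depth: of the tested genes with a mean of at least 1000, 39.4% fell and 32.8% rose, while the members had a median mean of 2208. The 3 shSPINK2 libraries lay below all shNEG libraries in 32 of 79 members, against 31.4% of all genes tested. They lay above them in 20 members, against 30.2%. By the same rule, 2562 of the 6334 tested genes with a mean of at least 1000 lay below and 2170 above. The changes were small. With a log2 change beyond 1 also asked, C1QBP was the 1 member that fell and 0 rose, against 2.96% and 1.77% of all genes tested, and 73 of 79 members stayed within 0.5 of 0. The median absolute log2 change was 0.16 over the members, 0.27 over all genes tested and 0.22 over those with a mean of at least 1000.

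**Figure D1:**
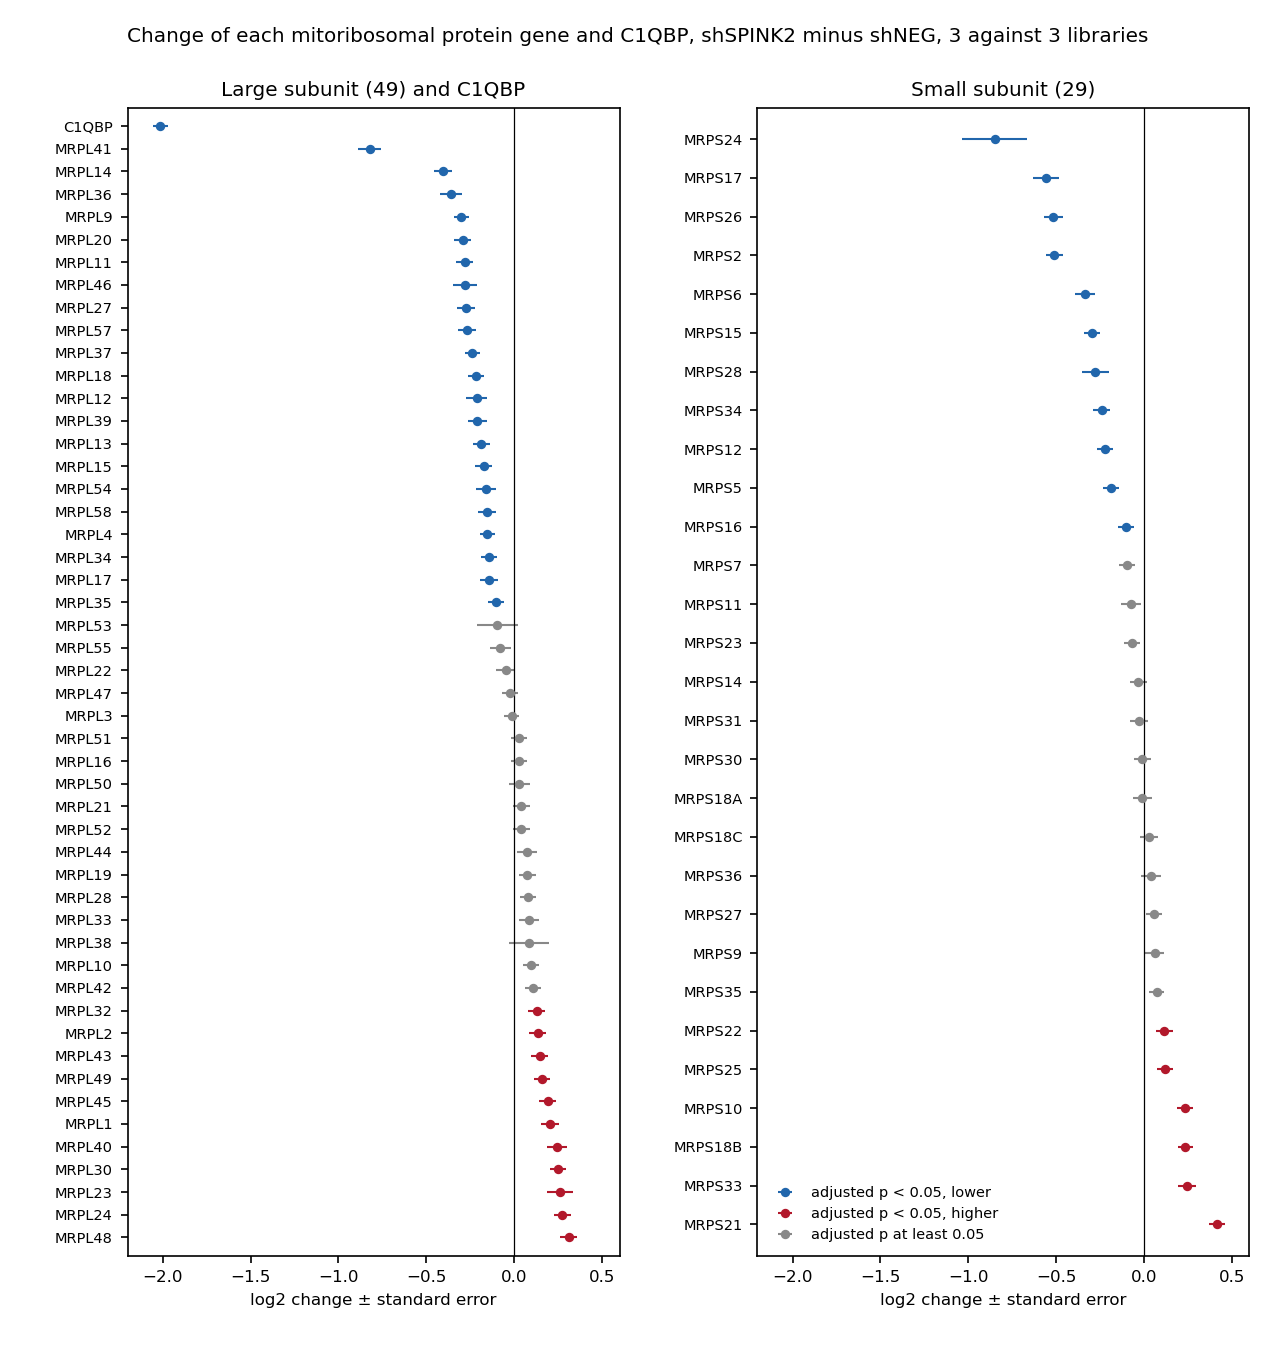
Log2 change (shSPINK2 minus shNEG, 3 against 3 libraries, x axis, with standard error) of each member, with the 49 large-subunit genes and C1QBP on the left and the 29 small-subunit genes on the right. Blue and red points passed an adjusted p of 0.05 (limma) and grey points did not. C1QBP at -2.01 stands far from the mitoribosomal genes, which run from -0.85 (MRPS24) to 0.42 (MRPS21).

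In the large subunit, 21 of 49 genes fell, 11 rose and 17 did not pass. MRPL41, a protein with no bacterial counterpart, fell the most. Its normalized counts were 927, 1067 and 1033 with shNEG against 573, 523 and 615 with shSPINK2, with no overlap (log2 change -0.82, SE 0.07, adjusted p = 4.07e-13, limma). MRPL14, which sits on the face of the subunit that meets the small subunit, had 1376, 1410 and 1377 with shNEG against 1045, 1001 and 1098 with shSPINK2 (log2 change -0.41, SE 0.05). These 2 genes were the large-subunit members that moved by more than 0.4 on the log2 scale in either direction. MRPL36, the counterpart of a very short bacterial protein, fell by 0.36 on the log2 scale (SE 0.06), from 826 ± 27.1 to 645 ± 53.7. MRPL9 (-0.30), MRPL20 (-0.29) and MRPL11 (-0.28) followed, each with an SE of 0.05. MRPL11 forms part of the site where translation factors with GTPase activity dock. In all 6 of these genes each shSPINK2 library lay below each shNEG library.

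The rises in the large subunit were smaller. MRPL48 had 2358, 2418 and 2465 with shNEG against 2797, 3105 and 3094 with shSPINK2, again with no overlap (log2 change 0.31, SE 0.05, adjusted p = 9.20e-07, limma). MRPL24 rose by 0.27 (SE 0.05), MRPL30 by 0.25 (SE 0.05), MRPL40 by 0.25 (SE 0.06) and MRPL1, at the stalk where the emptied tRNA leaves, by 0.20 (SE 0.05), all on the log2 scale. MRPL23, a protein at the exit of the peptide tunnel, had 493, 496 and 483 with shNEG against 569, 525 and 682 with shSPINK2 (log2 change 0.26, SE 0.07, adjusted p = 0.00289, limma). Its value rested on the library shSPINK2 C, without which the log2 change was 0.16 (adjusted p = 0.0713, limma). MRPL3 (-0.01, SE 0.04), MRPL47 (-0.02, SE 0.05) and MRPL51 (0.03, SE 0.05) had the log2 changes closest to 0 and did not pass.

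Genes whose proteins touch each other in the large subunit did not all move one way. MRPL38, MRPL40, MRPL46 and MRPL48 belong to the central protuberance, the crest of the large subunit, and were set side by side after their values were seen. MRPL40 and MRPL48 rose, MRPL46 fell by 0.28 on the log2 scale (SE 0.07), and MRPL38 had a log2 change of 0.09 (SE 0.11, adjusted p = 0.541, limma). In the stalk that draws elongation factors to the ribosome, MRPL12 went from 1331 ± 62.4 to 1152 ± 117 (log2 change -0.21, SE 0.06, adjusted p = 0.00275, limma). MRPL10, which anchors MRPL12, had 0.10 (SE 0.05, adjusted p = 0.0848, limma), and MRPL53 had -0.10 (SE 0.12, adjusted p = 0.501, limma). MRPL10 passed without the library shSPINK2 A (log2 change 0.12, adjusted p = 0.0304, limma). MRPL58, a peptidyl-tRNA hydrolase built into the large subunit, fell by 0.16 on the log2 scale (SE 0.05, adjusted p = 0.00861, limma). Without the library shNEG C it did not pass (log2 change -0.13, adjusted p = 0.0671, limma). MRPL12 shares 69.5% of its exonic length with a gene listed at 0, and MRPL53 shares 72.8% with CCDC142 on the same strand, so reads of that pair are uncertain.

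**Figure D2:**
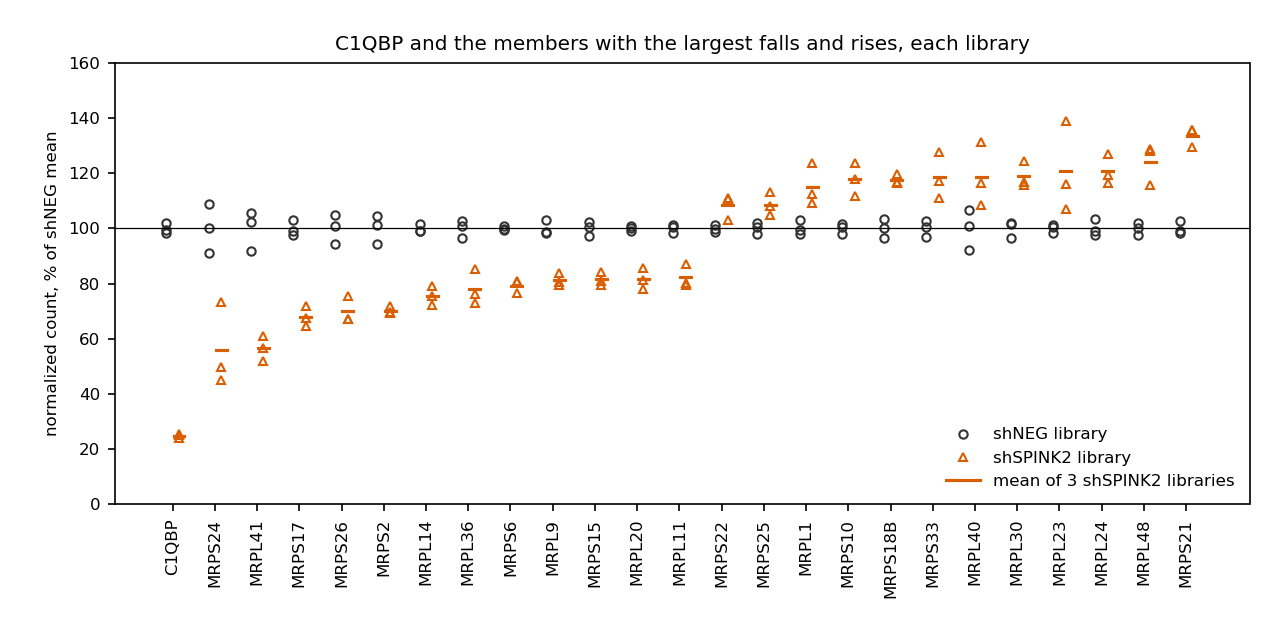
Normalized count of each library as a percent of the gene's shNEG mean (y axis) for C1QBP and the genes with the largest falls and rises in each subunit (x axis). Circles are shNEG libraries, triangles shSPINK2 libraries and dashes the mean of the 3 shSPINK2 libraries. In every gene drawn the circles and triangles do not overlap, and MRPL23 and MRPL40 have the widest spread of triangles among the genes that rose.

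In the small subunit, 11 of 29 genes fell, 6 rose and 12 did not pass. MRPS24, the counterpart of a bacterial protein at the entry of the mRNA channel, had the lowest log2 change of the mitoribosomal genes and the lowest level. Its normalized counts were 63.8, 70.0 and 76.1 with shNEG against 51.3, 34.7 and 31.5 with shSPINK2 (log2 change -0.85, SE 0.18, adjusted p = 0.000173, limma). The groups did not overlap, but the shSPINK2 libraries were spread widely, and the log2 change ranged from -1.06 to -0.71 with 1 library left out. MRPS17 had 467, 460 and 486 with shNEG against 339, 318 and 303 with shSPINK2 (log2 change -0.56, SE 0.07, adjusted p = 6.02e-08, limma). MRPS26, which has no bacterial counterpart, went from 1873 ± 100 to 1310 ± 88.6 (log2 change -0.52, SE 0.05). MRPS2 went from 2845 ± 144 to 1997 ± 38.8 (log2 change -0.51, SE 0.05, adjusted p = 2.44e-11, limma). MRPS6 (-0.34, SE 0.06) and MRPS15 (-0.29, SE 0.05) followed, and all 6 genes lay lower in each shSPINK2 library than in any shNEG library. MRPS12, which helps form the decoding centre, fell by 0.22 on the log2 scale (SE 0.05, adjusted p = 8.33e-05, limma).

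MRPS21 had the largest rise of the mitoribosomal genes. Its normalized counts were 2323, 2410 and 2310 with shNEG against 3182, 3190 and 3037 with shSPINK2, 33.6% higher (log2 change 0.42, SE 0.05, adjusted p = 8.64e-10, limma). MRPS33 had 2028, 2147 and 2102 with shNEG against 2324, 2669 and 2451 with shSPINK2 (log2 change 0.24, SE 0.05). MRPS10 rose from 4015 ± 74.1 to 4729 ± 241 (log2 change 0.24, SE 0.05), and in these 3 genes the groups did not overlap. MRPS25 (0.12, adjusted p = 0.0225) and MRPS22 (0.12, adjusted p = 0.0361, limma) passed narrowly. MRPS25 no longer passed without shNEG A, shNEG C or shSPINK2 A (log2 change 0.09 to 0.12, adjusted p 0.0569 to 0.124, limma). MRPS22 no longer passed without any 1 of shNEG A, shNEG B, shNEG C, shSPINK2 B or shSPINK2 C (log2 change 0.10 to 0.12, adjusted p 0.067 to 0.128, limma). Both share about as much exon with a gene on the opposite strand, 39.1% with NR2C2 for MRPS25 and 38.9% with COPB2 for MRPS22, and the counting is not stated to use strand. MRPS18A (-0.01, SE 0.06), MRPS30 (-0.01, SE 0.05) and MRPS31 (-0.03, SE 0.05) had the log2 changes closest to 0 and did not pass. Structures of the human mitoribosome place MRPS18A and MRPS30 in the large subunit despite their names.

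The MRPS18 genes are 3 paralogs, all related to bacterial S18. MRPS18B had 4037, 3770 and 3906 with shNEG against 4556, 4550 and 4678 with shSPINK2 (log2 change 0.24, SE 0.04, adjusted p = 2.24e-05, limma). MRPS18A had 937, 1009 and 898 against 957, 928 and 939, and MRPS18C had 1299, 1391 and 1282 against 1313, 1381 and 1361. Both overlapped between groups, with log2 changes of -0.01 (SE 0.06) for MRPS18A and 0.03 (SE 0.05) for MRPS18C. The difference between the paralogs was not tested. MRPS18C shares 40.2% of its exonic length with ABRAXAS1 and MRPS18A 50.9% with RSPH9, both on the opposite strand.

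The question set by the naming, large against small subunit, was described by counts, medians and sums, with no test. The median log2 change was -0.02 in the large subunit (range -0.82 to 0.31), -0.03 in the small subunit (range -0.85 to 0.42) and -8.87e-05 over all genes tested. With 1 library left out, the large-subunit median moved to -0.04 without shNEG A, -0.01 without shNEG C, -0.01 without shSPINK2 A and -0.05 without shSPINK2 C, and the small-subunit median to -0.06 without shSPINK2 B. With MRPS18A and MRPS30 counted in the large subunit, the medians were -0.01 and -0.067. The large-subunit median was the lower of the pair without shNEG A and without shSPINK2 C. The fall was called in 42.9% of large-subunit and 37.9% of small-subunit genes, and the rise in 22.4% and 20.7%. The groups of libraries did not overlap in 20 of 49 large-subunit genes that were lower and 13 that were higher. In the small subunit these were 11 and 7 of 29 genes. Of all genes tested, 31.4% were lower and 30.2% higher without overlap. Of the 6334 with a mean of at least 1000, 2562 were lower and 2170 higher. The summed normalized count of the 49 large-subunit genes was 116071 ± 445 in shNEG and 112385 ± 2285 in shSPINK2, a difference of -3.18% (SD, n = 3 each). That of the 29 small-subunit genes was 71361 ± 333 and 70256 ± 1677, a difference of -1.55%. Their ratio was 1.61, 1.64 and 1.63 with shNEG against 1.62, 1.57 and 1.61 with shSPINK2. The ratios overlapped between groups, and only shSPINK2 B lay below all shNEG libraries.

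**Figure D3:**
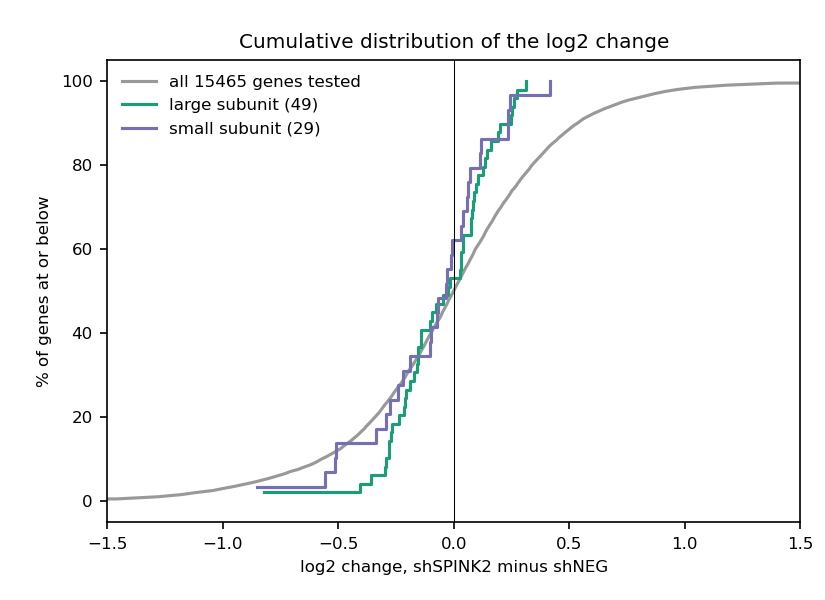
Cumulative percent of genes (y axis) at or below a log2 change (shSPINK2 minus shNEG, x axis) for the 49 large-subunit genes, the 29 small-subunit genes and all 15465 genes tested. Both subunit curves are steeper than that of all genes and cross it near 0, and they lie close to each other.

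A further split, by whether the gene's number is one that bacterial ribosomal proteins carry, was added after the values were seen and has no test. Of 45 genes with a bacterial number (MRPS24, the counterpart of S3, included), 22 fell and 9 rose, with a median log2 change of -0.10. MRPS24 was the only gene placed by its counterpart and not by its number, and it had the lowest log2 change of the mitoribosomal genes (-0.85). Of the other 33 genes, 10 fell and 8 rose, with a median of 0.03. In the large subunit 14 of 28 genes of the bacterial set fell and 6 rose, against 7 and 5 of the 21 others. In the small subunit 8 of 17 fell and 3 rose, against 3 and 3 of the 12 others. Of all genes tested 29.5% fell and 28.1% rose, and of those with a mean of at least 1000, 39.4% and 32.8%.

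Levels per kilobase of exon differed widely between genes named for 1 ribosome. In shNEG, the large-subunit genes ran from 47.9 normalized counts per kilobase (MRPL38) to 3984 (MRPL18), with a median of 930. The small-subunit genes ran from 26.8 (MRPS24) to 2612 (MRPS34), with a median of 685. MRPL18, whose bacterial counterpart binds the small rRNA of the large subunit, fell by 0.22 on the log2 scale (SE 0.05), and MRPS34 by 0.24 (SE 0.05). The exonic length counted every annotated exon of a gene, so genes with long rare exons, such as MRPS25, come out low on this scale. The lowest gene of each subunit also shares exon with another gene on the same strand, 41.1% of its exonic length for MRPL38 (a gene with an authors' mean of 2.84) and 23.2% for MRPS24 (URGCP-MRPS24, with an authors' mean of 0.836). How shared reads were counted is not stated, so both levels are uncertain.

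Promoters were searched because the members are known targets of shared transcription factors. Promoter sequences (250 bases before to 50 after the start, RefSeq, GRCh38.p14) were found for 70 of the 79 members and compared with 27305 promoters. The letters AAGATGGCG, a core of the YY1 motif that also holds a start codon, occurred on either strand in 13 of the 70 (18.6%, against 1.85% of all promoters). In 10 members (14.3%, against 1.06%) they stood in the direction of the gene, 7 to 36 bases after the start, and in 9 of these the ATG was the annotated start codon. These 10 places are shown from the largest fall to the largest rise, 30 bases each, with the searched letters in capitals.
MRPS24, chr7:43869484-43869513, minus strand: cgctccgcttggcccAAGATGGCGgcctcc
MRPL46, chr15:88467366-88467395, minus strand: attgtgggagaacgaAAGATGGCGgcgccc
MRPL22, chr5:154941093-154941122, plus strand: gtagcgggagggcgaAAGATGGCGgcggca
MRPS30, chr5:44808945-44808974, plus strand: ccggaatcgcgggcaAAGATGGCGgcggcc
MRPS18A, chr6:43687768-43687797, minus strand: cagggtaggtttttgAAGATGGCGgccctc
MRPL50, chr9:101398581-101398610, minus strand: ccgtggatctcatcgAAGATGGCGgcgcga
MRPL38, chr17:75904864-75904893, minus strand: tcgcaggccggagggAAGATGGCGgcgccc
MRPL42, chr12:93467507-93467536, plus strand: gaccaggattgaaacAAGATGGCGggttcg
MRPS10, chr6:42217838-42217867, minus strand: gaggtcgggaccggcAAGATGGCGgcgcgg
MRPS18B, chr6:30617848-30617877, plus strand: tcctgggcgtacgtcAAGATGGCGgcgtct
Of the 13 members with the letters on either strand, 3 fell and 3 rose (median log2 change 0.03), and of the 57 without them 26 fell and 12 rose (median -0.08). YY1, named as the factor of this motif, fell by 0.23 on the log2 scale. The letters CCGGAAGT, bound by ETS factors such as GABPA, occurred in 11 promoters (15.7%, against 4.44%), with 3 members that fell and 1 that rose. GCGCATGC, a core of the NRF1 motif, occurred in 6 (8.57%, against 3.27%), with 1 that fell and 2 that rose. CACGTG, the E-box read by MYC and MAX, occurred in 6 (8.57%, against 7.43%), with 2 that fell and 2 that rose. All were searched on both strands, none is contained in another, and the C1QBP window held none of the 4 words.

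Other genes of the pathway were taken from lists of genes known for each function, and each list is described by its counts and its median. These are to be read beside the shares over all genes tested, of which 29.5% fell and 28.1% rose, and over those with a mean of at least 1000, of which 39.4% fell and 32.8% rose. Of 5 mitoribosomal proteins with other names, 3 fell, AURKAIP1 (-0.35, SE 0.05), GADD45GIP1 (-0.20, SE 0.05) and CHCHD1 (-0.18, SE 0.05), and DAP3, the GTP-binding protein of the small subunit, rose (0.23, SE 0.04). PTCD3 had a log2 change of 0.07 (SE 0.04) and did not pass. Of 28 genes for mitoribosome assembly and rRNA modification, 13 fell, 7 rose and 8 did not pass (median -0.09). MPV17L2, a protein of the inner membrane that binds the large subunit, went from 1437 ± 76.1 to 543 ± 15.6 (log2 change -1.40, SE 0.06, adjusted p = 8.04e-21, limma). The helicase DHX30 (-0.42, SE 0.05) and METTL17 (-0.39, SE 0.04) came next, and the largest rises were YBEY (0.43, SE 0.12), the rRNA methyltransferase METTL15 (0.32, SE 0.07) and the GTPase GTPBP10 (0.28, SE 0.06).

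Of 13 tested translation factors, 8 fell, 2 rose and 3 did not pass (median -0.20, against -8.87e-05 over all genes tested). MRRF, which recycles the ribosome after termination, went from 1934 ± 29.1 to 996 ± 55.7 (log2 change -0.96, SE 0.05, adjusted p = 1.36e-17, limma). TACO1, an activator of translation of cytochrome oxidase subunit I, fell by 0.85 on the log2 scale (SE 0.06), and MTFMT, which formylates the initiator tRNA, fell by 0.55 (SE 0.07). The initiation factor MTIF3 (0.33, SE 0.05) and C6orf203 (0.27, SE 0.07) rose. Of 24 tested genes in the list for mitochondrial transcription and RNA handling, 10 fell, 5 rose and 9 did not pass (median -0.03). That list also held genes for replication of mitochondrial DNA, namely POLG, POLG2, TWNK and SSBP1. KIAA0391, the nuclease subunit of mitochondrial RNase P, fell by 0.48 on the log2 scale (SE 0.09), PNPT1 by 0.34 (SE 0.04) and FASTKD3 by 0.34 (SE 0.06). POLG2 (0.39, SE 0.06), HSD17B10 (0.36, SE 0.04), another subunit of that RNase P, and MTERF1 (0.16, SE 0.06) rose.

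Of the 15 mitochondrially encoded genes, MT-RNR1, the rRNA of the small subunit, was low enough in count to be tested. It went from 6621 ± 216 to 6056 ± 251 (log2 change -0.13, SE 0.04, adjusted p = 0.0135, limma). Libraries were made from mRNA, so this rRNA is seen through whatever escaped that selection. The other 14 had authors' means of 16110 to 201274 and were not tested. Of 11 tested regulators of mitochondrial gene expression, 6 fell, 1 rose and 4 did not pass (median -0.23). NRF1 fell by 0.77 on the log2 scale (SE 0.06), GABPB1 by 0.67 (SE 0.05) and PPARGC1B by 0.46 (SE 0.05), and MAX rose by 0.18 (SE 0.04).

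Proliferation markers moved with the groups too. Of 12 such genes 5 were tested, and all 5 fell: CCNB1 (-1.28), RRM2 (-1.04), PCNA (-0.89), TYMS (-0.85) and MCM6 (-0.72), with a median of -0.89. Their summed normalized count was 42404 to 42780 in the shNEG libraries and 21518 to 23511 in the shSPINK2 libraries, and none of the 12 was listed at 0. Their part in the changes of C1QBP and the mitoribosomal genes was not tested. Over the same libraries the summed count of both mitoribosomal subunits differed by -2.56%.

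Reads shared with other genes touch several of these values. Of the 79 members, 41 share exonic bases with another listed gene, and 27 share at least 10% of their exonic length. Without these 27, 21 members fell and 12 rose, against 33 and 17 of all 79. Over all genes tested 29.5% fell and 28.1% rose, and over those with a mean of at least 1000, 39.4% and 32.8%. Of 81 listed pseudogenes of members, 2 had a mean of at least 10, the highest being MRPS31P4 at 248, and all of them together held 0.217% of the members' summed mean.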

How the data were processed

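mRNA libraries of 3 shNEG and 3 shSPINK2 samples were sequenced as paired reads of 150 bases. Per the study's methods and the submitters' processing notes, reads were aligned with STAR 2.7.11 to hg38 (GRCh38) and counted with featureCounts, whose version, annotation and strand setting are not given in the sources used here, and tested with DESeq2 1.40.0. The deposited table lists 63236 genes with a signal column, the authors' mean of normalized counts over the 6 libraries, which was used. The deposited table also holds the authors' log2 fold change and its standard error. These were used to choose among whole-read solutions and to assign the recovered libraries to groups, and were neither printed nor compared. Its test statistic, p-value, adjusted p-value and status columns were not used.

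Reads per library were recovered from the deposited mean. The means of genes with single reads gave the 6 size factors, and 650 of 650 distinct means under 1 (100%) were whole sums of reads. For each gene, the whole-number reads were those whose mean and fitted log2 ratio matched the deposited values. A program written for this purpose did the fit, and DESeq2 (1.42.0) served as an alternative and a check. The largest miss was 1.22e-14 and the smallest miss of any other solution 9.32e-11. All 15465 genes with a mean from 10 to 10000 were recovered, which is 95.9% of those with a mean of at least 10, and 666 genes above 10000 were not tested. Recovered genes held 57.4% of the summed mean of 38425214 normalized counts. The libraries carry no replicate number after recovery and are named A to C. Which 3 libraries belong to a group followed from the sign of the authors' log2 fold change in genes with a single read, a ratio of shSPINK2 to shNEG as the study's text uses it. No level of SPINK2 or a member was used for this.

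Normalized counts were tested on the log2(count + 1) scale, which understates the change of low genes, with limma 3.58.1 (trend, two-sided, Benjamini-Hochberg over all genes tested, no covariates). A gene was called at an adjusted p under 0.05. Alternatives used edgeR 4.0.16 and DESeq2 on the recovered reads (R 4.3.3), which called 8991 and 7535 genes, against 8903 by limma. The recovery of reads and the limma test were tested on simulated data. There limma called 18 of 50 genes with a log2 change of 0.25, 34 of 50 at 0.5 and 44 of 50 at 1. It called all 50 at 2 and 9 of 15265 genes with no change. How often limma misses a change at the level of the members was not tested. Their median mean was 2208, against 608 over all genes tested. The members that did not pass had log2 changes from -0.10 to 0.11, and may still have changed by a small amount. Exonic lengths and overlaps came from GENCODE 44, in which all 79 members were matched.

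Genes named were SPINK2, C1QBP, the 6 largest falls and rises and 3 smallest changes per subunit, the highest and lowest per kilobase, the MRPS18 paralogs, the stalk, MRPS12, MRPL58 and the 3 largest falls and rises of each list. Genes outside this rule were named as partners in an overlap, as the factor of a searched motif, as cell markers, to complete a list of 5 genes, or, where marked so, after their values were seen. The members and lists were chosen with earlier results of these data known. Counts carry no molecular identifiers, and the standard errors measure the spread between these libraries, which may be technical.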

Additional observations from a re-analysis of the deposited data

How the results depend on the processing

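No paired analysis was possible because the recovered libraries carry no replicate number. With a pseudocount of 5, no filter, a minimum mean of 50, edgeR, DESeq2, centring of all genes at 0 or an adjusted p under 0.01, 41 to 52 members were called, and 41 to 50 of the 50 called here were among them. No called member changed sign. With 1 library left out, 29 to 31 members fell and 13 to 19 rose. The median log2 change was then -0.05 to -0.01 in the large and -0.06 to -0.02 in the small subunit. The large-over-small ratio of summed counts in shSPINK2, divided by that ratio in shNEG, was 0.978 to 0.993. SPINK2 had a log2 change of -2.97 to -2.73. With a log2 change beyond 1 asked, 1 member fell and 0 rose, with 0 and 0 in each subunit. Only MRPS24 had reads fixed by the mean alone, and that setting gave 1 fall, 0 rises and a small-subunit median of -0.85, since 1 gene was left. Without members that share at least 10% of their exonic length (chosen after seeing the data), 21 fell, 5 of them in the small subunit. With all genes counted, 11 of 29 small-subunit genes fell. The genes left out held MRPS24, MRPS17 and MRPS2, among the largest falls of that subunit, and also MRPS22 and MRPS25, which rose. With MRPS18A and MRPS30 counted in the large subunit (also chosen after seeing the data), the small-subunit median was -0.067 and the counts of calls did not change. Genes with means above 10000 were outside every setting, and at a mean of 54.5 MRPS24 is the member whose depth limits its value most.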
